A study of Homo sapiens with 8 samples.

Results

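Pre-mRNA splicing depends on proteins that mark exons and on the enzyme that cuts and joins them. Heterogeneous nuclear ribonucleoproteins (hnRNPs) coat nascent RNA and often silence nearby exons, while SR proteins, named for their arginine- and serine-rich tails, bind exon enhancers and recruit the spliceosome. The CDC5L complex, also called the Prp19 complex, joins the spliceosome as it is activated and holds its RNA core in shape. Many hnRNP and SR protein genes adjust their own mRNA by splicing in exons that mark it for decay.

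The splicing genes described here were taken by name from the array's gene table: 18 hnRNP genes, 12 SR protein genes (the SRSF genes with TRA2A and TRA2B) and 5 genes of the CDC5L complex, 35 in all. On the whole array 18417 genes have a probe set that names them alone. The 35 genes have 44 probe sets among the 21214 that carry a gene name. For 32 of the genes at least 1 probe set names that gene alone, and the probe set with the highest mean stands for the gene. HNRNPA3, HNRNPC and HNRNPH2 are measured only by probe sets that also carry a paralog, a pseudogene or a read-through transcript, and they were kept out of the counts.

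The cells were T47D, an established line of human breast carcinoma, infected with lentivirus for a conditional hairpin: a short hairpin RNA (shRNA) that targets EglN2, or the Scr control. EGLN2 encodes an oxygen-dependent prolyl hydroxylase of the family that acts on hypoxia-inducible factor (HIF). The 4 groups were the EglN2 shRNA line at day 2 (48 h of doxycycline, 1 ug/ml) and at day 0 (none), and the Scr line at day 2 and at day 0, with 2 arrays each. All groups share the virus infection, and both lines received doxycycline, so an effect of the drug itself is in both lines; whether a line is 1 clone is not given in the sources used here. Levels are log2 values on Affymetrix arrays made with RMA, which corrects background, normalizes arrays and joins the probes of a set, so a difference of 1 is a doubling.

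The EGLN2 probe set, which also carries the RAB4B-EGLN2 read-through name, read 8.26 and 8.29 in the EglN2 shRNA line at day 2 and 8.85 and 9.04 at day 0, against 8.81 and 8.90 in the Scr line at day 2 and 8.97 and 9.0 at day 0. Its level in the EglN2 shRNA line at day 2 was 62.9% of that at day 0 (limma, adjusted p = 0.134). Replicate arrays correlated at 0.992 to 0.996 over all named probe sets. The 10 luminal breast markers (ESR1, GATA3, KRT8 and others) lay above the array median on all 8 arrays, while of 13 measured basal, fibroblast, leukocyte and endothelial markers only COL1A1 did so on all 8. Whether replicate arrays hold separate cultures is not stated in the labels, and each p-value therefore covers only array-to-array spread, which may be technical. In RNA of a whole culture, fewer cells that express a gene and less RNA per cell cannot be told apart.

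Among the 32 splicing genes, HNRNPM and CDC5L had the largest differences between day 2 and day 0 of the EglN2 shRNA line, and none of the 32 passed the test over all probe sets. HNRNPM encodes an hnRNP that binds GU-rich RNA, and CDC5L encodes the scaffold of the complex named after it. Both read lowest on the 2 arrays of the EglN2 shRNA line at day 2, with no overlap with any of the other 6 arrays. The other 30 genes differed by -0.16 to 0.28 on the log2 scale. With limma (all 8 arrays, 4 group means) and Benjamini-Hochberg adjustment, 0 of 32 were called at an adjusted p under 0.05, against 0.00943% of all 21214 probe sets. At an unadjusted p under 0.05 there were 0 genes higher and 2 lower, against 2.73% and 3.04% of all probe sets. The genes were chosen with earlier results of these data known, so such counts, here and below, only describe the list.

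HNRNPM read 11.72 and 11.77 in the EglN2 shRNA line at day 2 and 12.32 and 12.30 at day 0, against 12.22 and 12.18 in the Scr line at day 2 and 12.36 and 12.31 at day 0. The pair of EglN2 shRNA day 2 arrays lay below all others and within 0.05 of each other. HNRNPM thus had a log2 change of -0.57 over the 48 h (SE 0.10, 95% interval -0.78 to -0.35, adjusted p = 0.168), a level 67.6% of that at day 0. By p it held rank 23 among all probe sets. In the Scr line the arrays of day 2 also lay below those of day 0, with a log2 change of -0.13 (-0.18 after quantile normalization).

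CDC5L read 9.61 and 9.89 in the EglN2 shRNA line at day 2 and 10.44 and 10.42 at day 0, against 10.46 and 10.42 in the Scr line at day 2 and 10.36 and 10.49 at day 0. The other 6 arrays lay between 10.36 and 10.49, while the EglN2 shRNA day 2 arrays differed from each other by 0.28. The log2 change was -0.68 (SE 0.12, 95% interval -0.95 to -0.41, adjusted p = 0.170), or 62.4% of the day 0 level, and its rank by p was 28. Without day 2 replicate 1 of this line the change was -0.54, and without day 2 replicate 2 it was -0.82. In the Scr line CDC5L differed between the days by 0.02 (-0.04 after quantile normalization).

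**Figure D1:**
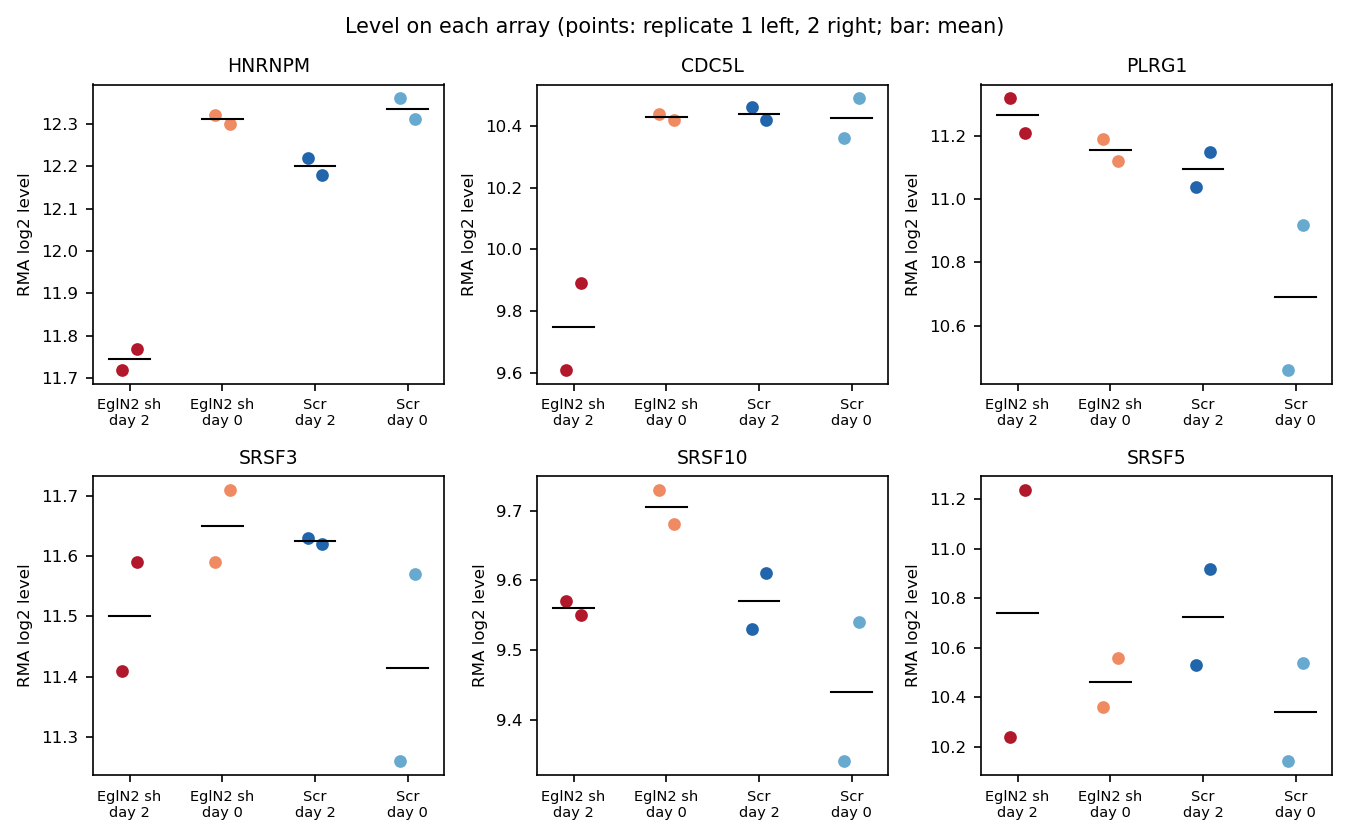
RMA log2 level (y axis, a separate range in each panel) of 6 splicing genes on each of the 8 arrays, by line and day (x axis). Points are arrays, replicate 1 left and replicate 2 right, and bars are group means; HNRNPM and CDC5L sit lowest on both EglN2 shRNA day 2 arrays, PLRG1 sits lowest on the Scr day 0 arrays, and SRSF5 spreads from 10.24 to 11.24 within the EglN2 shRNA day 2 pair.

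The promoters of the 2 genes with the largest differences, and that of PLRG1, whose level differed most between the lines at day 0, are shown for their HIF-type motifs and for a CG-rich element of housekeeping promoters. The windows are the 250 bases before the RefSeq start (GRCh38.p14): HNRNPM at chr19:8444725-8444974 on the + strand, CDC5L at chr6:44387456-44387705 on the + strand and PLRG1 at chr4:154550401-154550650 on the - strand. Capitals mark the HIF site core ACGTG, its variant with the letters GCGTG, and the CG-rich element TCTCGCGAGA, each on either strand.
HNRNPM: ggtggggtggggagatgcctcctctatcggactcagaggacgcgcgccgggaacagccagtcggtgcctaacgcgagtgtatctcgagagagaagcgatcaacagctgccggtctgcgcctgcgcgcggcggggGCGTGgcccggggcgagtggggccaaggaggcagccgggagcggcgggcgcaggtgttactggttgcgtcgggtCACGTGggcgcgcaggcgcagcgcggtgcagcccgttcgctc
CDC5L: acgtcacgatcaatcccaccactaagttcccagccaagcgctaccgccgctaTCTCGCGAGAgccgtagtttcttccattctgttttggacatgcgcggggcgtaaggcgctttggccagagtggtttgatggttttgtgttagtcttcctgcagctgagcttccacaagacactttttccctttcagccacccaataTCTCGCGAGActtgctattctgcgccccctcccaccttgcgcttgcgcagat
PLRG1: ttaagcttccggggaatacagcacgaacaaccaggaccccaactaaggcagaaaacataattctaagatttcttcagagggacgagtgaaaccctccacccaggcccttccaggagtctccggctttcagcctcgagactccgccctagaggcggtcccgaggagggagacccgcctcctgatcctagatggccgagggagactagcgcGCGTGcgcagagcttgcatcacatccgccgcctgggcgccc

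The HNRNPM window holds ACGTG on both strands of 1 palindrome (CACGTG, so these 2 matches overlap) and 1 GCGTG, and the PLRG1 window holds 1 GCGTG. In the CDC5L window neither of these 5-letter strings occurs, and TCTCGCGAGA, known as a binding element of the factor BANP, occurs 2 times. That element was added to the search after the CDC5L window had been read, as the longest self-complementary string that recurs in it, so its presence there is a description only. Windows were found for 32 of the 35 genes, which are not the same 32 as the counted genes. HNRNPA1, SRSF2 and TRA2A had no window, while HNRNPA3, HNRNPC and HNRNPH2 had one. Beside CDC5L the element occurs in the windows of HNRNPK and SRSF10. Without the CDC5L window that is 2 of 31, or 6.45%, against 0.407% of 27304 promoters of the same length. ACGTG occurs in 46.9% of the 32 windows against 18.7% of all 27305 promoters, and GCGTG in 59.4% against 31.9%. The windows are also richer in G and C, with a median of 64.2% against 58.0% and 24.5 CG pairs against 11. A match describes letters only, since the arrays measure no binding.

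Within the EglN2 shRNA line the median change was -0.04 over 15 hnRNP genes, -0.02 over 12 SR protein genes and -0.12 over 5 CDC5L complex genes, against 0.00 over all named probe sets. A change below 0 was seen in 22 of the 32 genes (16 to 23 without single arrays), against 47.8% of all probe sets. Among the 2180 probe sets at or above 10.5, the lower quartile of the members' mean levels, it was 53.6%. Groups did not overlap for 9 genes on the lower side and 2 on the higher side, which is 28.1% and 6.25% of the 32 genes, against 15.5% and 15.2% of all probe sets. For 28 of the 32 genes the 95% interval of the change, not adjusted for the number of genes, lay wholly within a 1.5-fold difference either way. The other 4 were HNRNPM, CDC5L, HNRNPA1 and SRSF5, and the last 2 had the widest gaps between replicates.

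Among the remaining hnRNPs the largest moderated t in the EglN2 shRNA line belonged to HNRNPU, which encodes a nuclear scaffold protein that binds both RNA and chromatin. HNRNPU read 12.46 and 12.65 in the EglN2 shRNA line at day 2 and 12.68 and 12.75 at day 0, against 12.52 and 12.66 in the Scr line at day 2 and 12.58 and 12.63 at day 0. The day 2 and day 0 arrays of the EglN2 shRNA line did not overlap and lay close together. Its change was -0.16 (SE 0.11, 95% interval -0.41 to 0.09, adjusted p = 0.958).

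Both SR protein genes with the largest moderated t in this line read lower at day 2 by 0.15. SRSF10 encodes an SR protein that turns into a splicing repressor when it loses its phosphates. SRSF10 read 9.57 and 9.55 in the EglN2 shRNA line at day 2 and 9.73 and 9.68 at day 0, against 9.53 and 9.61 in the Scr line at day 2 and 9.34 and 9.54 at day 0. Over the 48 h that line gave -0.15 (SE 0.11, adjusted p = 0.962), and that of its further probe set was -0.13. SRSF3, the smallest SR protein, which also takes part in mRNA export, read 11.41 and 11.59 in the EglN2 shRNA line at day 2 and 11.59 and 11.71 at day 0, against 11.63 and 11.62 in the Scr line at day 2 and 11.26 and 11.57 at day 0. The days touched at 11.59 in the EglN2 shRNA line, and the change was -0.15 (SE 0.13, 95% interval -0.44 to 0.14).

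In the CDC5L complex, CTNNBL1 encodes an armadillo-repeat protein that binds CDC5L. CTNNBL1 read 9.88 and 9.84 in the EglN2 shRNA line at day 2 and 10.03 and 9.93 at day 0, against 9.79 and 9.81 in the Scr line at day 2 and 9.95 and 9.88 at day 0. Both lines read lower at day 2, with the same change of -0.12 (SE 0.10). PRPF19, the ubiquitin ligase of the complex, gave -0.10 in each line. The other 4 members thus spanned -0.12 to 0.11 in the EglN2 shRNA line, where CDC5L stood at -0.68.

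**Figure D2:**
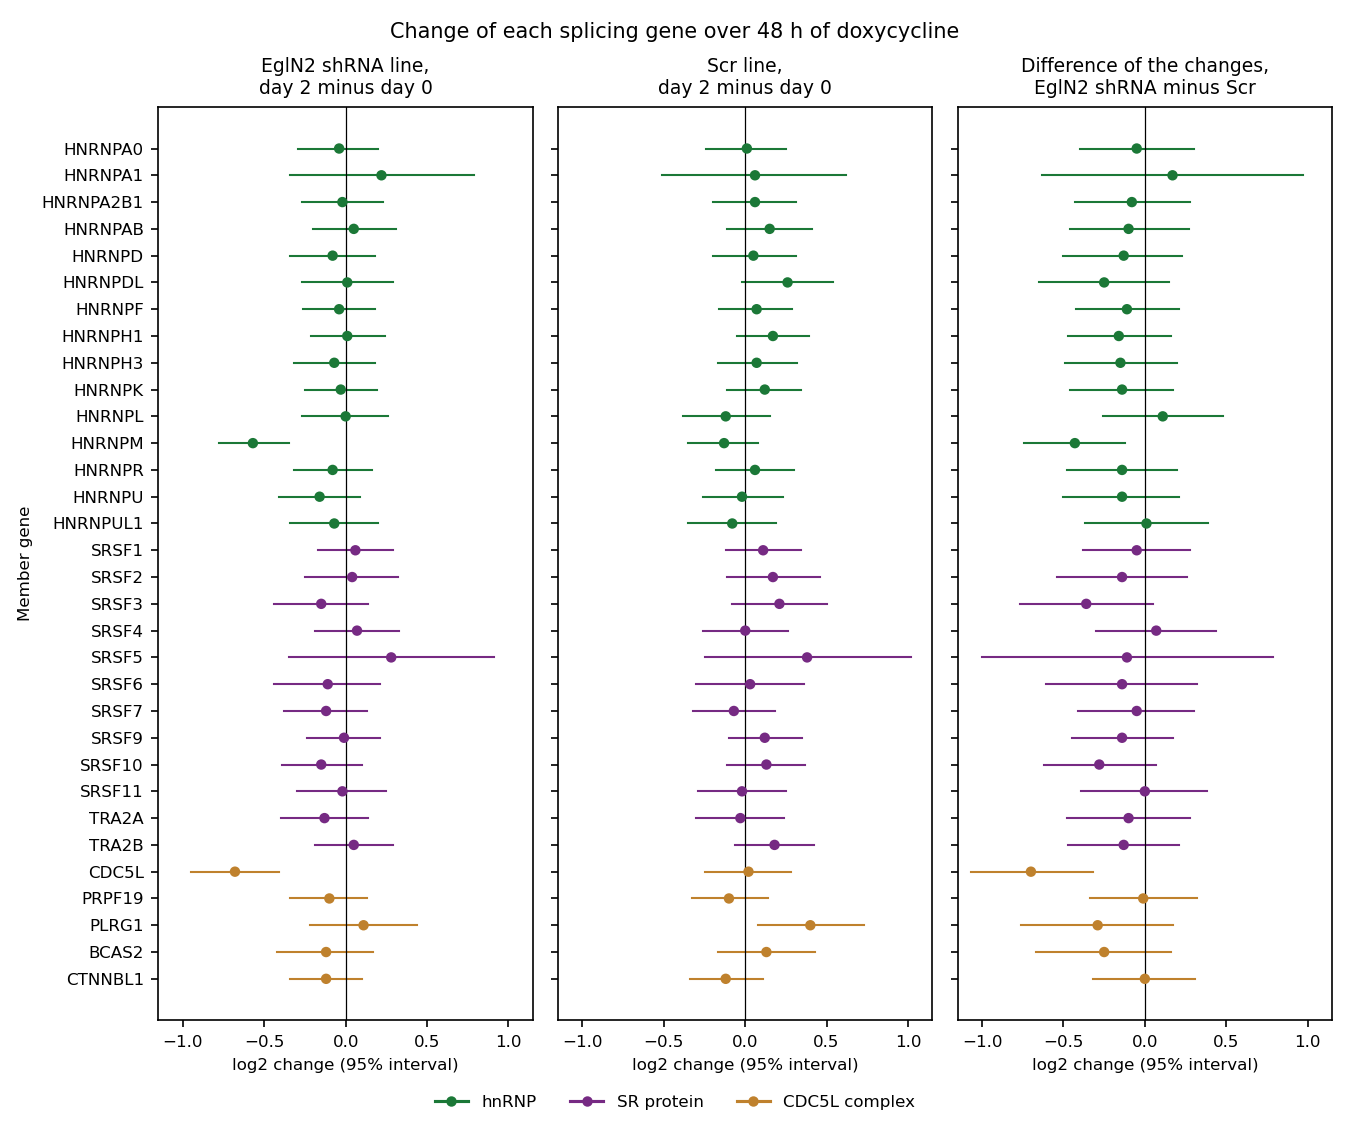
Log2 change over 48 h of doxycycline of each of the 32 splicing genes (y axis) in the EglN2 shRNA line, in the Scr line, and as the difference of the changes, with points for the estimate and lines for the 95% interval from limma. Colours mark hnRNP, SR protein and CDC5L complex genes; HNRNPM at -0.57 and CDC5L at -0.68 stand apart on the left, and most other intervals cover 0.

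The Scr line gave the change over the same 48 h without the EglN2 hairpin. No group was kept to day 2 without doxycycline. Within a line, the drug, the time in culture and the hairpin therefore cannot be told apart. PLRG1, a WD-repeat protein of the CDC5L complex, had the largest difference in size, 0.40, and 0 of 32 genes were called with limma, as were 0% of all probe sets. At an unadjusted p under 0.05 there was 1 gene higher (PLRG1) and 0 lower, against 7.49% and 5.36% of all probe sets. Medians were 0.06 for hnRNPs, 0.12 for SR proteins and 0.02 for the CDC5L complex, against -0.01 for all probe sets. After quantile normalization of the deposited values they were 0.01, 0.07 and -0.04. A change above 0 was seen in 22 of 32 genes, against 47.5% of all probe sets, and groups did not overlap for 8 genes on the higher side and 3 on the lower, or 25% and 9.38% of them, against 23.0% and 24.8%.

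PLRG1 read 11.32 and 11.21 in the EglN2 shRNA line at day 2 and 11.19 and 11.12 at day 0, against 11.04 and 11.15 in the Scr line at day 2 and 10.46 and 10.92 at day 0. The Scr day 0 pair was lowest and differed by 0.46, more than any other pair of replicates of this gene. Its change was 0.40 (SE 0.15, 95% interval 0.08 to 0.73, adjusted p = 0.332) in the Scr line and 0.11 in the EglN2 shRNA line. The Scr change was 0.17 without day 0 replicate 1 and 0.63 without day 0 replicate 2.

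HNRNPDL, an hnRNP D relative, read 11.08 and 11.10 in the EglN2 shRNA line at day 2 and 11 and 11.16 at day 0, against 11.19 and 11.21 in the Scr line at day 2 and 10.78 and 11.10 at day 0. Its low value was again on Scr day 0 replicate 1, and its change in the Scr line was 0.26 (SE 0.13, adjusted p = 0.417). HNRNPH1, which binds runs of G, read 11.93 and 11.92 in the EglN2 shRNA line at day 2 and 11.91 on both arrays at day 0, against 11.89 and 11.91 in the Scr line at day 2 and 11.67 and 11.79 at day 0. The Scr day 0 arrays were the lowest 2 of the 8, and the change in the Scr line was 0.17 (SE 0.10). TRA2B, a splicing activator related to the fly sex-determination factor Transformer-2, read 12.30 and 12.26 in the EglN2 shRNA line at day 2 and 12.19 and 12.27 at day 0, against 12.27 and 12.32 in the Scr line at day 2 and 12.02 and 12.21 at day 0. Its change in the Scr line was 0.18 (SE 0.11), and that of SRSF3, whose levels are given above, was 0.21 (SE 0.13).

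These Scr differences move with 1 array. On Scr day 0 replicate 1 the median hnRNP gene read 0.12 below its own mean over the 8 arrays and the median SR protein gene 0.11 below, against 0.00 and -0.03 on Scr day 0 replicate 2. The median deviation over all named probe sets was 0.01 on that array, but its 90th percentile was 10.45, against 10.52 to 10.57 on the other 7. Without that array the changes in the Scr line were 0.10 for HNRNPDL, 0.11 for HNRNPH1, 0.08 for TRA2B and 0.05 for SRSF3, and without Scr day 0 replicate 2 they were 0.42, 0.23, 0.27 and 0.36. Without replicate 1 the class medians in the Scr line were 0.01 for hnRNPs, 0.05 for SR proteins and -0.01 for the CDC5L complex. HNRNPL, HNRNPUL1, HNRNPA0 and HNRNPM went the other way and read highest of all arrays there, at 11.95, 10.83, 10.87 and 12.36. Without that array the change of HNRNPM in the Scr line was -0.11. The splicing genes are bright on these arrays, with means of 8.05 to 12.88 and all 32 above the median probe set. Among all 2180 probe sets at or above 10.5, the lower quartile of the members' mean levels, 67.7% had a change above 0 in the Scr line, with a median of 0.07 (0.02 after quantile normalization). The part of this array and of brightness in the members' differences was not tested.

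**Figure D3:**
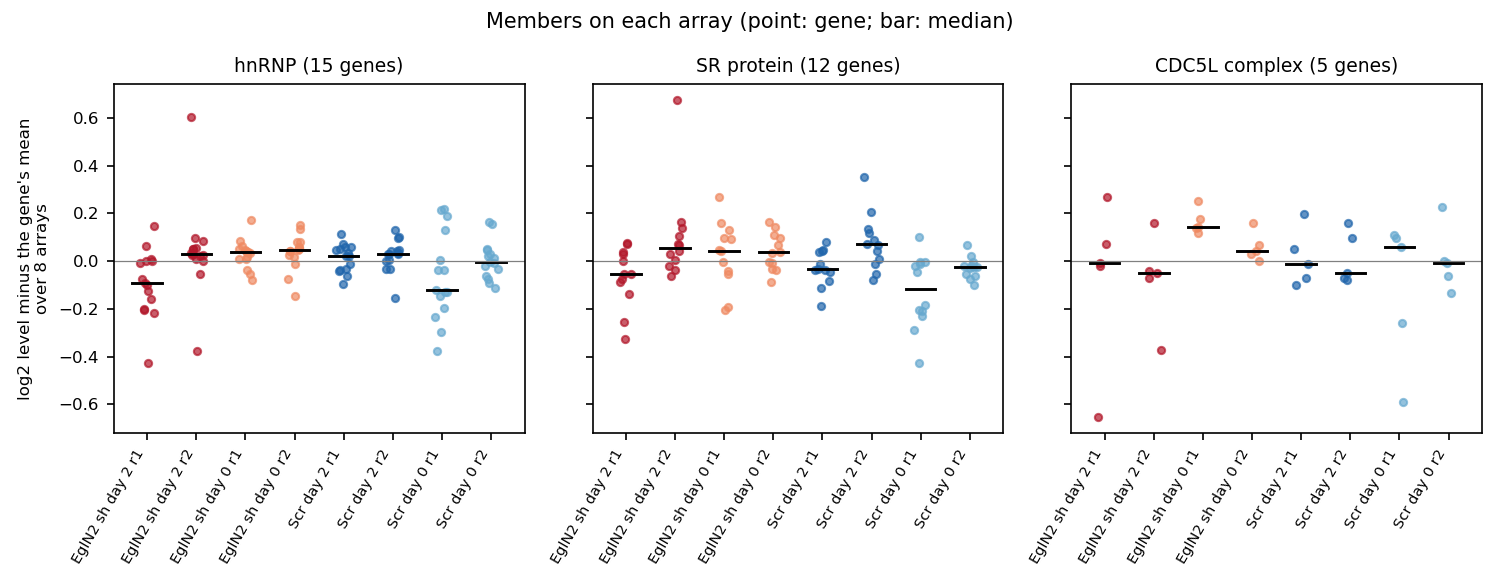
Log2 level of each splicing gene minus its own mean over the 8 arrays (y axis), by array (x axis, r1 and r2 for the replicates) and by class. Points are genes and bars are medians; the hnRNP and SR protein medians are lowest on Scr day 0 replicate 1, at -0.12 and -0.11, and the low points of the EglN2 shRNA day 2 arrays are HNRNPM and CDC5L in their panels.

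The difference between the changes of the lines gave the change of the EglN2 shRNA line over the 48 h beyond that of the control line. CDC5L, at -0.70 (SE 0.17, 95% interval -1.07 to -0.32, adjusted p = 0.652), and HNRNPM, at -0.43 (SE 0.14, 95% interval -0.74 to -0.12, adjusted p = 0.676), again had the largest size. SRSF3 followed at -0.36 (SE 0.18), PLRG1 at -0.29 (SE 0.21), SRSF10 at -0.28 (SE 0.15) and HNRNPDL at -0.25 (SE 0.18). Without Scr day 0 replicate 1 these were -0.20, -0.06, -0.18 and -0.09, and without Scr day 0 replicate 2 they were -0.51, -0.52, -0.38 and -0.41. With limma 0 of 32 genes passed, as did 0% of all probe sets, and at an unadjusted p under 0.05 there were 2 genes lower and 0 higher, against 3.98% and 3.14% of all probe sets. The 2 genes were CDC5L and HNRNPM, at -0.62 and -0.36 after quantile normalization.

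A difference below 0 was seen in 28 of 32 genes, 12 of 15 hnRNPs, 11 of 12 SR proteins and 5 of 5 CDC5L complex genes, against 48.4% of all probe sets and 70.0% of the 2180 bright ones. The medians were -0.13, -0.12 and -0.25, and after quantile normalization -0.05, -0.05 and -0.18, with 22 of 32 genes below 0. Among the 28, SRSF11 and CTNNBL1 rounded to 0.00 and PRPF19 gave -0.01. After quantile normalization they gave 0.09, 0.08 and 0.07, so not all of the CDC5L complex then lay below 0. For 7 genes, 21.9%, all changes of the EglN2 shRNA line lay below all those of the Scr line, against 10.4% of all probe sets, and for 0 genes the reverse held, against 10.1%. These comparisons share arrays, so the counts in the lines and in their difference are not independent.

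At day 2 the lines differed most in CDC5L, which read 9.61 and 9.89 in the EglN2 shRNA line against 10.46 and 10.42 in the Scr line. The log2 difference was -0.69 (SE 0.12, 95% interval -0.96 to -0.42, adjusted p = 0.113), or 62.0% of the Scr level. When only probe sets above the median level were tested, CDC5L passed, with an adjusted p of 0.0465 from limma; over the other alternatives it ran from 0.0505 to 0.881. HNRNPM differed by -0.46 (SE 0.10, 95% interval -0.67 to -0.24, adjusted p = 0.276). In the limma fit over all named probe sets 0 of 32 genes passed, against 0.0754% of probe sets, and at an unadjusted p under 0.05 there were 2 lower (CDC5L and HNRNPM) and 0 higher, against 2.69% and 2.49%.

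The other 30 genes lay between -0.13 and 0.25 at day 2. HNRNPD, which binds AU-rich mRNA and steers its decay, read 11.91 and 12.16 in the EglN2 shRNA line at day 2 and 12.07 and 12.16 at day 0, against 12.13 and 12.21 in the Scr line at day 2 and 12.07 and 12.16 at day 0. The difference at day 2 was -0.13 (SE 0.12), and the groups overlapped. SRSF9 read 11.63 and 11.71 in the EglN2 shRNA line at day 2 and 11.70 and 11.67 at day 0, against 11.75 and 11.84 in the Scr line at day 2 and 11.66 and 11.68 at day 0. Its difference at day 2 was -0.12 (SE 0.10). SRSF1, one of the earliest SR proteins described, read 12.45 and 12.51 in the EglN2 shRNA line at day 2 and 12.47 and 12.37 at day 0, against 12.34 and 12.36 in the Scr line at day 2 and 12.17 and 12.31 at day 0. Its difference was 0.13 (SE 0.10), and that of PLRG1 was 0.17 (SE 0.15). For all 3 genes the lines did not overlap at day 2, yet each interval covered 0. Lower values without overlap were seen for 6 genes and higher ones for 5, or 18.8% and 15.6% of the 32, against 14.8% and 15.6% of all probe sets.

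Before doxycycline, the EglN2 shRNA line read higher than the Scr line in 26 of the 32 genes, against 50.1% of all probe sets and 79.7% of the 2180 bright ones. Medians were 0.10 for hnRNPs, 0.12 for SR proteins and 0.06 for the CDC5L complex, and after quantile normalization 0.03, 0.05 and -0.01. Without Scr day 0 replicate 1 the hnRNP median was 0.03. Groups did not overlap for 13 genes, all higher in the EglN2 shRNA line, which is 40.6% of the 32, against 22.2% of all probe sets on that side and 22.9% on the other. The count depends on the normalization. After quantile normalization HNRNPH3, HNRNPR, HNRNPU, SRSF3 and SRSF6 no longer stood apart. HNRNPM then read lower in the EglN2 shRNA line without overlap (12.30 and 12.28 against 12.43 and 12.32), as did CDC5L, SRSF4 and HNRNPUL1. With limma 0 of 32 passed, as did 0% of all probe sets, and at an unadjusted p under 0.05 there were 2 higher, against 5.16%, and 0 lower, against 5.27%.

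The 2 genes were PLRG1, with a log2 difference of 0.46 (SE 0.15, 95% interval 0.14 to 0.79, adjusted p = 0.455), and SRSF10, with 0.27 (SE 0.11, 95% interval 0.02 to 0.51, adjusted p = 0.463; 0.26 on its further probe set). BCAS2, a small subunit of the CDC5L complex, read 10.38 and 10.24 in the EglN2 shRNA line at day 2 and 10.56 and 10.31 at day 0, against 10.36 and 10.26 in the Scr line at day 2 and 10.05 and 10.31 at day 0. The lines touched at 10.31 at day 0, and the difference was 0.26 (SE 0.13). HNRNPAB, which binds RNA and single-stranded DNA, read 12.60 and 12.48 in the EglN2 shRNA line at day 2 and 12.49 and 12.48 at day 0, against 12.39 and 12.55 in the Scr line at day 2 and 12.22 and 12.42 at day 0. Its difference at day 0 was 0.16 (SE 0.11), HNRNPH1 gave 0.18 (SE 0.10) and SRSF3 0.24 (SE 0.13). Without Scr day 0 replicate 1 the differences at day 0 were 0.23 for PLRG1, 0.17 for SRSF10, 0.12 for BCAS2, 0.06 for HNRNPAB, 0.12 for HNRNPH1 and 0.08 for SRSF3. Without Scr day 0 replicate 2 they were 0.69, 0.37, 0.38, 0.26, 0.24 and 0.39 in the same order of genes. HNRNPM and CDC5L differed by -0.02 and 0.01 between the lines at day 0 (-0.08 and -0.07 after quantile normalization).

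Over both lines together, with 4 arrays at day 2 and 4 at day 0, HNRNPM had the smallest adjusted p, with a log2 change of -0.35 (SE 0.07, 95% interval -0.50 to -0.20, adjusted p = 0.105). All 4 day 2 arrays lay below all 4 day 0 arrays, which held for no other of the 32 genes in either direction and for 2.11% of all probe sets on the lower side and 2.98% on the higher. HNRNPM passed in limma when the prior variance followed intensity (adjusted p = 0.0261) and when only probe sets above the median level were tested (adjusted p = 0.0430). Without single arrays its adjusted p ran from 0.107 to 0.449 in limma. CDC5L gave -0.33 (SE 0.08, adjusted p = 0.214), with the day 2 arrays of the Scr line inside the range of the day 0 arrays. PLRG1 gave 0.26 (SE 0.10, adjusted p = 0.432), HNRNPDL 0.14 (SE 0.09) and TRA2B 0.12 (SE 0.08). In all, 0 of 32 genes passed in limma, against 0.141% of probe sets, with 1 higher and 2 lower at an unadjusted p under 0.05, against 6.47% and 4.27%.

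SRSF5, an SR protein that shuttles to the cytoplasm, had the largest positive change over both lines, 0.33, and the widest replicate spread of the 32 genes. SRSF5 read 10.24 and 11.24 in the EglN2 shRNA line at day 2 and 10.36 and 10.56 at day 0, against 10.53 and 10.92 in the Scr line at day 2 and 10.14 and 10.54 at day 0. The pair of EglN2 shRNA day 2 arrays enclosed every other array except Scr day 0 replicate 1. The interval over both lines ran from -0.12 to 0.78 (SE 0.20). In the EglN2 shRNA line alone its change of 0.28 turned to -0.22 without day 2 replicate 2 and was 0.78 without day 2 replicate 1.

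HNRNPA1, the best known exon-silencing hnRNP, showed the same kind of spread on the probe set that names it alone. HNRNPA1 read 7.84 and 8.66 in the EglN2 shRNA line at day 2 and 8.14 and 7.91 at day 0, against 8.10 and 7.90 in the Scr line at day 2 and 7.68 and 8.21 at day 0. In the EglN2 shRNA line this probe set gave 0.22 (95% interval -0.34 to 0.79), which turned to -0.19 without day 2 replicate 2. The 4 probe sets that HNRNPA1 shares with its pseudogenes and with HNRNPA1L2 gave -0.06, -0.02, -0.02 and -0.03 there, with 95% intervals that lay between -0.30 and 0.21. These 4 read far higher, from 13.09 to 13.75 over the 8 arrays. The probe set of HNRNPA1 alone, which stands for the gene in the counts and medians, is dim beside them. Median levels of named probe sets were 7.81 to 7.86 by array. TRA2A also has 2 probe sets of its own, with changes of -0.13 and 0.18, and the second read 7.05 and 8.09 on the EglN2 shRNA day 2 arrays.

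The median gap between replicates of the 32 genes was 0.11 at day 2 and 0.07 at day 0 in the EglN2 shRNA line, and 0.08 at day 2 and 0.16 at day 0 in the Scr line. Over all named probe sets it was 0.16 and 0.11 in the EglN2 shRNA line, and 0.10 and 0.14 in the Scr line, in the same order of days. The members thus had a smaller median gap than all probe sets in 3 of the 4 groups and a larger one in Scr day 0.

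**Figure D4:**
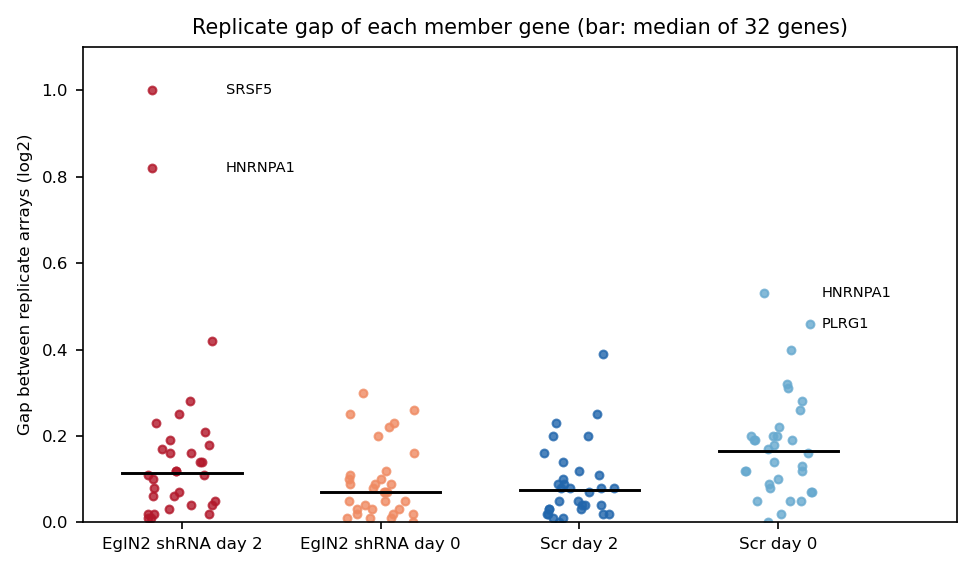
Gap in log2 level between the 2 replicate arrays (y axis) of each of the 32 splicing genes in each group (x axis), with bars for the median. SRSF5 at 1.00 and HNRNPA1 at 0.82 stand out in the EglN2 shRNA day 2 group, and the median is highest, at 0.16, in Scr day 0.

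The remaining genes had small changes in both lines. Among hnRNPs, HNRNPA2B1, a relative of HNRNPA1, gave -0.02 in the EglN2 shRNA line and 0.06 in the Scr line, and HNRNPF, which like HNRNPH1 binds runs of G, gave -0.04 and 0.07. HNRNPL, which binds CA repeats, gave 0.00 in the EglN2 shRNA line and -0.12 in the Scr line. HNRNPA0, HNRNPH3, HNRNPR and HNRNPUL1 lay between -0.08 and -0.04 in the EglN2 shRNA line. Among SR proteins, SRSF2, which stays in the nucleus, gave 0.04 in the EglN2 shRNA line and 0.17 in the Scr line, and SRSF7, which carries a zinc knuckle, gave -0.12 and -0.07. SRSF4, SRSF6 and SRSF11 gave 0.07, -0.11 and -0.02 in the EglN2 shRNA line, where SRSF6 ran from -0.32 to 0.10 without single arrays.

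HNRNPA3, HNRNPC and HNRNPH2 were measured only on shared probe sets. HNRNPA3, close in sequence to HNRNPA1, gave -0.17, -0.14 and -0.11 on its 3 probe sets in the EglN2 shRNA line. In the difference of changes it gave -0.38, -0.32 and -0.26. Between the lines at day 2 its probe sets gave -0.24, -0.22 and -0.20, in the same order. Apart from HNRNPM and CDC5L, the counted genes lay between -0.13 and 0.25 there. Each 95% interval of HNRNPA3 at day 2 covered 0, the widest from -0.52 to 0.04. HNRNPC, which binds runs of U, gave 0.04 and 0.05 in the EglN2 shRNA line on probe sets that also name its C-like paralogs. In the Scr line these gave 0.15 and 0.32, the second with a 95% interval of 0.02 to 0.62 (adjusted p = 0.373 in limma). HNRNPH2 gave -0.06 in the EglN2 shRNA line and 0.11 in the Scr line. None of the 10 shared probe sets passed the limma test in any of the 6 comparisons.

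The genes that work beside these proteins were taken from 7 lists of general knowledge (131 genes, 121 measured by a probe set of their own): other hnRNPs, other SR-related proteins, SR protein kinases and importers, further Prp19 complex and activated spliceosome genes, the spliceosome core, splicing helicases and tissue splicing regulators. With limma 0 of 121 passed in any of the 6 comparisons. In the EglN2 shRNA line the median was -0.04, with 76 of 121 genes below 0, against 47.8% of all probe sets and 53.6% of the 2180 bright ones. At an unadjusted p under 0.05, 4 of the 121 were lower and 0 higher there, against 3.04% and 2.73% of all probe sets, so the lower count is near the background share. In the Scr line the median was 0.02, with 6 of 121 higher and 5 lower, against 7.49% and 5.36% of all probe sets.

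MBNL3, a muscleblind-like splicing regulator, had the smallest p of the 121 in the EglN2 shRNA line. MBNL3 read 7.30 and 7.53 in the EglN2 shRNA line at day 2 and 7.87 and 7.99 at day 0, against 7.5 and 7.51 in the Scr line at day 2 and 7.82 and 7.71 at day 0. Both lines read lower at day 2 without overlap, with changes of -0.52 (SE 0.11, adjusted p = 0.316) in the EglN2 shRNA line and -0.26 (SE 0.11) in the Scr line. CWC22, an activated-spliceosome protein, gave -0.23, RNPS1, which links splicing to the exon junction complex, -0.24, and LUC7L, a U1-associated protein, -0.26 in the EglN2 shRNA line.

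PTBP2, the neural form of the polypyrimidine tract binding protein (hnRNP I), had the smallest p in the Scr line. PTBP2 read 7.74 and 8.05 in the EglN2 shRNA line at day 2 and 7.64 and 7.80 at day 0, against 7.65 and 8.01 in the Scr line at day 2 and 7.15 and 7.22 at day 0. The Scr day 0 arrays were the lowest 2, with a change of 0.64 (SE 0.15, adjusted p = 0.234) in the Scr line and a difference of 0.53 (SE 0.15, adjusted p = 0.455) between the lines at day 0. TIA1, a U-rich binding splicing factor, gave 0.38 (SE 0.11), ARGLU1 0.47 (SE 0.14) and SF3B4, a U2 subunit, -0.33 (SE 0.11) in the Scr line. In the difference of changes the smallest p belonged to TIA1, at -0.53 (SE 0.15, adjusted p = 0.676). At day 2 the smallest p between the lines belonged to BUD31, an activated-spliceosome protein, at 0.32 (adjusted p = 0.846).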

How the data were processed

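RNA of 8 T47D samples was labelled with biotin and hybridised to Affymetrix arrays, per the labels' protocols. Each deposited value is the log2 level of a probe set after RMA, for which the authors used Affymetrix Expression Console according to the submitters' processing notes. Its version, like the genome build, is not given in the sources used here. The table holds 33297 probe sets, from 2.73 to 15.25. The platform's gene table names 1 gene for 19460, several for 1754 and none for 12083. Through RefSeq (GRCh38.p14) the symbols of 19429 probe sets with 1 name were brought up to date by their gene ID. Promoter windows are RefSeq's.

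A limma model (version 3.58.1, R 4.3.3; lmFit and eBayes) with a mean for each of the 4 groups took in all 8 arrays. It has 4 residual degrees of freedom and gains 5.53 from the shared prior. Tests were two-sided, with Benjamini-Hochberg adjustment over the 21214 named probe sets. The scripts were tested on simulated data. Precision is limited by 2 arrays per group: the median SE of a difference between groups was 0.12. No scanner files were analysed here.

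The members and lists were chosen with earlier results of these data known. In each of 6 comparisons and each class the 2 members with the largest moderated t were described by array, with up to 4 genes of the other lists by smallest p, and EGLN2. HNRNPA1 and the second TRA2A probe set were described by array after their values were seen. Alternatives were a replicate block, a prior following intensity, a filter on dim probe sets, all probe sets, quantile normalization, only the groups compared, other choices of probe set, and leaving out each array.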

Additional observations from a re-analysis of the deposited data

Results flagged for a closer look

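HNRNPK, which binds runs of C in RNA and DNA, lay on opposite sides in the 2 lines: both EglN2 shRNA day 2 arrays read below both day 0 arrays of that line (12.87 and 12.88 against 12.89 and 12.92), while both Scr day 2 arrays read above both Scr day 0 arrays (12.94 and 12.91 against 12.75 and 12.87). The changes were -0.03 and 0.12, and the difference of the changes, -0.14 (95% interval -0.46 to 0.17), did not pass in limma. After quantile normalization the days overlapped in the EglN2 shRNA line (12.89 and 12.86 against 12.88 and 12.90). Without Scr day 0 replicate 1 the change in the Scr line was 0.05.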

How the results depend on the processing

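With limma, the count of probe sets called changed with the setting. The sign held under all alternatives run for the 36 values of members with the largest moderated t. Over all 192 values (32 members, 6 comparisons), an alternative chosen after seeing the data, turns were counted on rounded values. By that rule the sign turned for 14, none above 0.06 in size, under quantile normalization. Without at least 1 array it turned for 77, up to 0.28 in size. Values that rounded to 0.00 were not counted as turned, such as SRSF11 in the difference of changes, at 0.09 after quantile normalization. The replicate number as a block gave 13 calls in the EglN2 shRNA line, 42 in the Scr line, 32 between the lines at day 2 and 150 over both lines, against 2, 0, 16 and 30 without it. The labels do not say that a number marks a shared batch; deviations of same-numbered arrays correlated at 0.10 to 0.27. A prior that follows intensity gave 6 calls in the Scr line, 2 in the difference of changes (0 otherwise), 26 at day 2 and 76 over both lines. Testing only probe sets above the median level gave 4 in the EglN2 shRNA line, 7 in the Scr line, 34 at day 2 and 75 over both lines. All probe sets of the table gave 0 in each of the EglN2 shRNA line, day 2 and both lines, and fitting only the groups compared gave 0 in the EglN2 shRNA line and 0 at day 2. Leaving out single arrays gave 0 to 2 in the EglN2 shRNA line, 0 to 15 at day 2 and 0 to 20 over both lines. CDC5L passed under 1 alternative and HNRNPM under 2, as given above; the cause was not tested.

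Quantile normalization of the deposited values moved the medians to 0.01, 0.07 and -0.04 for hnRNPs, SR proteins and the CDC5L complex in the Scr line, to -0.05, -0.05 and -0.18 in the difference of changes, and to 0.03, 0.05 and -0.01 at day 0. Without single arrays, hnRNP medians ran from -0.10 to 0.01 in the EglN2 shRNA line, 0.01 to 0.11 in the Scr line, -0.17 to -0.05 in the difference, -0.12 to 0.02 at day 2 and 0.03 to 0.15 at day 0. SR protein medians ran from 0.05 to 0.16 in the Scr line, -0.17 to -0.05 in the difference and -0.06 to 0.05 at day 2. CDC5L complex medians ran from -0.17 to -0.06, from -0.01 to 0.08 and from -0.38 to -0.09 in the EglN2 shRNA line, the Scr line and the difference, and from 0.02 to 0.12 at day 0. Counts of members above or below 0, an alternative chosen after seeing the data, stayed within 1.5 times the main count. Without single arrays, 16 to 23 of 32 were below 0 in the EglN2 shRNA line, against 22 with all arrays, and 23 to 28 in the difference. Above 0 there were 21 to 23 in the Scr line, 10 to 19 at day 2, 22 to 26 at day 0 and 13 to 20 over both lines.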
